A study of Mus musculus with 8 samples.

Results

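Annexins are a family of proteins that bind phospholipid membranes when calcium rises. The 10 genes described here (Anxa1 to Anxa8, Anxa10 and Anxa11) were chosen by symbol as members of that family. They are 10 of 54532 genes in the count table, which holds 13 rows with an annexin symbol in all. The RNA came from stomach corpus, where parietal cells make acid and chief cells make pepsinogen, of 4 mutant and 4 control mice of mixed C57BL/6 X CD1 strain. Mutants were Six2-Cre+/- with the genotype PKAcaR fl/wt, and controls were Six2-Cre+/- with PKAcaR wt/wt. The Cre transgene, expressed from the regulatory region of the mesenchymal transcription factor gene Six2, was thus carried by all 8 animals. PKAcaR names an allele of Prkaca, which encodes a catalytic subunit (alpha) of PKA, the kinase that cyclic AMP activates. Age is not given in the sources used here, nor is the set of corpus cells in which the allele had recombined, and no treatment was applied.

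Each annexin has a conserved core that carries its calcium and phospholipid binding sites, and an N-terminal tail of its own that sets its partners. Annexins organise membrane domains, take part in exocytosis and endocytosis, and gather at plasma membrane wounds during repair. In the stomach the family is best known through annexin A10, whose expression marks gastric epithelium. Annexin A1 is also known as an inhibitor of inflammation that is released from cells and acts on formyl peptide receptors. S100 proteins, small calcium-binding proteins, dock on the tails of several annexins.

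Total counts per library lay between 18184281 and 23814720 reads in mutants and between 18942308 and 22814152 in controls. Prkaca, the gene of the altered allele, was at 37.9 ± 1.87 CPM (reads scaled to a library size with a TMM factor, written CPM throughout) in mutants and 80.2 ± 4.05 CPM in controls (SD, n = 4 each), and it was lower in 4 of 4 mutants (edgeR adjusted p = 0.000604). Corpus markers were present in all 8 libraries. The summed parietal cell markers lay between 161 and 3466 CPM in mutants and between 16567 and 22567 CPM in controls. The chief cell markers lay between 996 and 41618 CPM in mutants and between 298410 and 533948 CPM in controls. Gif was counted in both sums, at 1096, 147, 1409 and 1349 CPM in mutants 1 to 4, against 2800 to 5168 CPM in controls. It thus made up most of the parietal sum in mutant 2. Atp4a, in the parietal list only, was at 444, 4.42, 1446 and 730 CPM in mutants, against 9783 to 13086 CPM in controls. Mutant 2 stood apart from the other mutants, with a correlation of log2 CPM across genes of at most 0.881, against at least 0.977 among the other 3. Control 3 and mutant 3 held squamous transcripts of the forestomach, with 268 and 704 summed CPM of squamous markers, against at most 3.13 CPM in the other 6 libraries. Results that rest on these libraries are given with and without them.

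Anxa1, Anxa2 and Anxa8 rose in the mutant corpus, no annexin fell, and 7 of the 10 were not called. All 10 passed the filter on low counts and were tested. The threshold was an adjusted p under 0.05 in edgeR's quasi-likelihood test, adjusted over all 15862 genes tested. Over all genes tested, 9.39% were called higher and 10.8% lower by the same rule, 20.2% in either direction. The 3 called genes were also the 3 whose groups did not overlap, with every mutant above every control, against 14.2% of all genes tested that lay this way, 16.1% that lay the opposite way and 30.3% whose groups did not overlap in either direction. Mutant over control, the 10 members had a median of 0.20 on the log2 scale, and all genes tested 0.07. In a bulk sample, fewer cells of a type and less RNA per cell cannot be told apart.

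**Figure D1:**
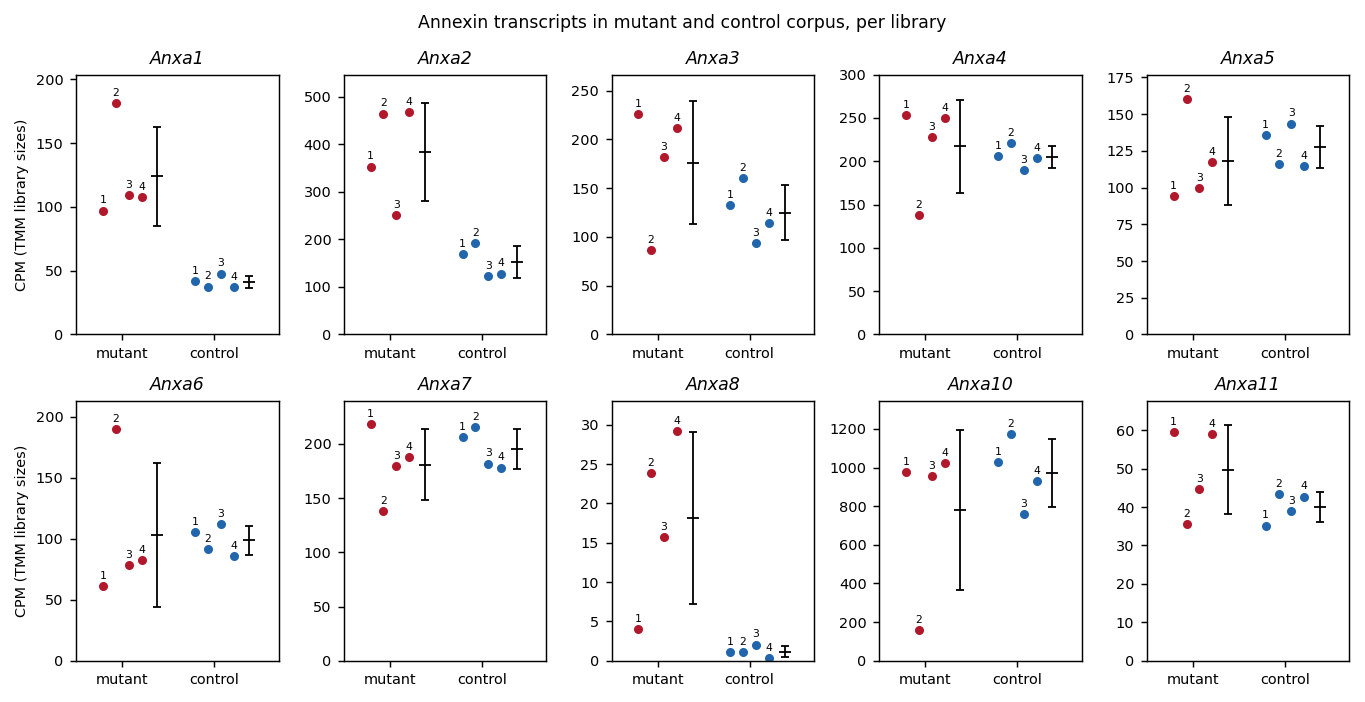
Read counts of the 10 annexins in CPM on TMM-scaled library sizes (y axis, from 0), with each of the 4 mutant libraries (red, left) and 4 control libraries (blue, right) numbered by replicate and the mean ± SD in black. All mutants lie above all controls for Anxa1, Anxa2 and Anxa8, and mutant 2 lies apart from the other mutants for Anxa1, Anxa6 and Anxa10.

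Anxa1 encodes annexin A1, the target of glucocorticoid induction that limits leukocyte recruitment (ENSMUSG00000024659, chromosome 19, 20373428 to 20390944, minus strand, protein coding). It was at 97.1, 181, 109 and 108 CPM in mutants 1 to 4, against 41.6, 37.6, 47.7 and 37.2 CPM in controls 1 to 4. Mutant 2 was the highest library, and all 4 mutants lay well above the highest control. On the log2 scale it rose by 1.60, the standard error (SE) being 0.21 (edgeR adjusted p = 0.00265), a 3.02-fold difference of mean CPM. Without mutant 2 the log2 fold change was 1.35 (SE 0.11, edgeR adjusted p = 1.7e-05).

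Anxa2 encodes annexin A2, which links membranes to actin and, together with the S100a10 protein, holds plasminogen and its activator at the cell surface (ENSMUSG00000032231, chromosome 9, 69453620 to 69491795, plus strand, protein coding). It was at 353, 464, 251 and 468 CPM in mutants 1 to 4, against 169, 193, 123 and 128 CPM in controls 1 to 4. Mutants 2 and 4 were alike and highest, and mutant 3, the lowest mutant, still lay above every control. The log2 fold change was 1.32 (SE 0.24, edgeR adjusted p = 0.00892), or 1.22 without mutant 2 (SE 0.22, edgeR adjusted p = 0.00235). An antisense gene, Gm16144, shares 98 exon bases with Anxa2 but held at most 21 reads in any library.

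Anxa8 encodes annexin A8, known from squamous epithelia (ENSMUSG00000021950, chromosome 14, 34085981 to 34100571, plus strand, protein coding). It was the scarcest annexin in controls. It held 119, 582, 364 and 680 reads in mutants 1 to 4, against 18, 17, 32 and 6 reads in controls 1 to 4. In CPM these were 3.98, 23.8, 15.7 and 29.1 in mutants, against 1.13, 1.12, 2.04 and 0.359 in controls. Mutant 1 was far below the other mutants, and control 3, a library with squamous transcripts, was the highest control. The log2 fold change was 3.96 (SE 0.71, edgeR adjusted p = 0.00819). Without control 3 and mutant 3 it was 4.44 (SE 0.88, edgeR adjusted p = 0.0347), where 3.67% of all genes tested were called higher and 5.14% lower. Without mutant 2 as well it was 4.25 and no longer called (SE 1.10, edgeR adjusted p = 0.0635), where 11% were called higher and 14.1% lower. A protein-coding gene on the other strand, A630023A22Rik, spans Anxa8 but shares 0 exon bases with it.

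Sequences before a RefSeq start of these 3 genes are shown with that of Anxa10, the most abundant annexin. The reason is that PKA is known to act on transcription through CREB, which binds the cyclic AMP response element. Each is the 250 bases before the RefSeq transcription start (GRCm38.p6), read 5′ to 3′ on the gene's strand, with matches to the motifs named after them in capitals. The windows are chr19:20390672-20390921 (minus strand) for Anxa1, chr9:69453433-69453682 (plus strand) for Anxa2, chr14:34085729-34085978 (plus strand) for Anxa8 and chr8:62123194-62123443 (minus strand) for Anxa10. RefSeq starts differ from those of the counted genes. The Anxa1 window lies inside the counted gene, which begins at 20390944 on the minus strand. The Anxa2 window runs past that gene's counted start at 69453620.
Anxa1: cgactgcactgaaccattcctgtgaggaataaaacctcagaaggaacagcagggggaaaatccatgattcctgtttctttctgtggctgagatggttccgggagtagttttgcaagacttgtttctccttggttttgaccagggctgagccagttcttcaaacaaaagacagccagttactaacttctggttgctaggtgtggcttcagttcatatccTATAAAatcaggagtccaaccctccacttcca
Anxa2: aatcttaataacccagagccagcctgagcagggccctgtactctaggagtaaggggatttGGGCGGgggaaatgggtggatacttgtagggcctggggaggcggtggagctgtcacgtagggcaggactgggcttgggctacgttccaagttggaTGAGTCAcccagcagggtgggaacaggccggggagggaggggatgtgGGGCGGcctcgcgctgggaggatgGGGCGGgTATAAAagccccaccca
Anxa8: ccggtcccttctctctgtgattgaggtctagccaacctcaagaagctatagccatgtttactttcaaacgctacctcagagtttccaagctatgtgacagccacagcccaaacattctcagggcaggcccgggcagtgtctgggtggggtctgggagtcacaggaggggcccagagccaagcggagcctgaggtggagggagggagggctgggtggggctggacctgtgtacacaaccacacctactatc
Anxa10: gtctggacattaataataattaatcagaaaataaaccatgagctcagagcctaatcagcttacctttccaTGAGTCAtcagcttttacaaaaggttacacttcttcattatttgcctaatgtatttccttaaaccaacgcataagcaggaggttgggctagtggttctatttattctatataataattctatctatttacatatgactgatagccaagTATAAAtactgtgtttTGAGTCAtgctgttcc

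Both strands of 10 such windows, found for 8 of the 10 members, were searched for 7 motifs. The full cyclic AMP response element, spelled TGACGTCA, was in none of them, and 1.55% of all 32851 windows of this length held it. Its first 5 letters alone, TGACG, which also lie inside the full element, were in 1 window, of Anxa4, and in 17.8% of all windows. Matches to the AP-1 motif TGANTCA, which 6.75% of all windows held, began at position -95 in Anxa2 and at -180 and -16 in Anxa10, counted back from the start. The TATA box, spelled TATAAA, was in Anxa1, Anxa2 and Anxa10 and in 12.4% of all windows. The GC box, spelled GGGCGG, was in Anxa2, Anxa7 and Anxa11 and in 32.7% of all windows. The STAT motif TTCNNNGAA was in no member's window and in 7.02% of all windows. The CCAAT box, spelled as its name, was in no member's window either and in 33.8% of all windows. Anxa8 thus matched none of the 7 in this window, which holds no more than these letters. Anxa3 and Anxa6 have no entry in the table used.

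The order of the annexins by level was read from the deposited FPKM, which divide by gene length. In mutants Anxa10 was highest, at 423, 68.5, 415 and 443 FPKM, against 445, 506, 329 and 401 FPKM in controls. In controls Anxa5 followed at 71.1 ± 8.27 FPKM (SD, n = 4), then Anxa4 (43.7 ± 2.59), Anxa2 (40.7 ± 8.81), Anxa3 (34.0 ± 7.58), Anxa6 (33.4 ± 4.20), Anxa7 (32.3 ± 2.97), Anxa1 (15.6 ± 1.93), Anxa11 (9.59 ± 0.878) and Anxa8 (0.614 ± 0.366). The neighbours from Anxa4 to Anxa7 overlapped in range among controls, while Anxa10 lay above Anxa5, Anxa5 above Anxa4, Anxa7 above Anxa1, Anxa1 above Anxa11 and Anxa11 above Anxa8 in every control library. In mutants the order was Anxa10 (338 ± 180 FPKM), Anxa2 (102 ± 27.4), Anxa5 (65.9 ± 16.7), Anxa3 (48.1 ± 17.1), Anxa1 (47.2 ± 14.8), Anxa4 (46.4 ± 11.5), Anxa6 (34.9 ± 19.9), Anxa7 (30.0 ± 5.44), Anxa11 (11.9 ± 2.77) and Anxa8 (9.59 ± 5.77). Among mutants the ranges of neighbours overlapped in every step but that from Anxa7 to Anxa11.

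Anxa10 made up 53.2%, 13.4%, 55.1% and 50.7% of the summed FPKM of the 10 annexins in mutants 1 to 4, against 60.1%, 63.0%, 54.3% and 61.1% in controls 1 to 4. Mutant 3 and control 3 overlapped in this share, and mutant 2 alone was far lower. The FPKM of Anxa10 was 4.50, 0.554, 6.21 and 3.56 times that of Anxa2 in mutants, against 9.87, 9.92, 10.02 and 11.8 times in controls. All 4 mutants thus lay below all 4 controls in this ratio. Its denominator, Anxa2, was called higher with no overlap of the groups, while Anxa10 was not called. In mutant 2 Anxa2, Anxa5 and Anxa1 all exceeded Anxa10, which was first in each of the other 7 libraries.

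**Figure D2:**
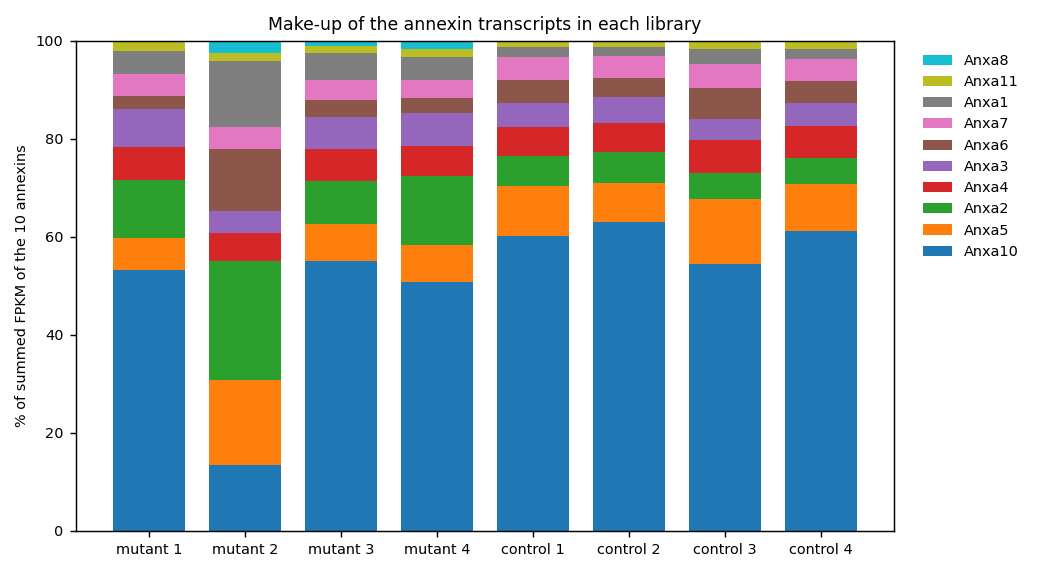
Share of each annexin in the summed deposited FPKM of the 10 genes (y axis, percent) in each library, mutants left and controls right. Anxa10 takes 50.7% to 55.1% in mutants 1, 3 and 4, 13.4% in mutant 2 and 54.3% to 63.0% in controls.

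Anxa10, which was not called, is the annexin whose expression is largely restricted to stomach epithelium (ENSMUSG00000031635, chromosome 8, 62057042 to 62123150). It was at 977, 158, 956 and 1024 CPM in mutants 1 to 4, against 1028, 1175, 757 and 928 CPM in controls 1 to 4. Mutants 1, 3 and 4 lay inside the range of the controls and mutant 2 far below it. The log2 fold change was -0.32 (SE 0.50, edgeR adjusted p = 0.681), and without mutant 2 it was 0.02 (SE 0.16, edgeR adjusted p = 0.937). Beside this, the summed pit cell markers, of the surface mucous lineage, were at 28296, 6125, 37294 and 27083 CPM in mutants 1 to 4, against 69112, 71667, 45208 and 59054 CPM in controls 1 to 4, with Gkn3 counted in. Muc5ac, Gkn1, Gkn2, Tff1 and Psca, 5 of the 6 markers in that sum, lay below every control in 4 of 4 mutants without being called, with log2 fold changes between -2.23 and -1.08 (edgeR adjusted p between 0.126 and 0.173), beside 16.1% of all genes tested that lay this way. The sixth, Gkn3, also known as a mucous neck cell gene in mouse, was called higher (3.09, SE 0.52, edgeR adjusted p = 0.00633). Thus the pit cell sum lay below every control in mutants 1, 3 and 4, where Anxa10 did not. The part of cell make-up in the Anxa10 values was not tested.

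Anxa3, Anxa4 and Anxa11 were lowest among mutants in mutant 2 too. Anxa3, an annexin of epithelia and of neutrophil granules, was at 226, 86.2, 182 and 211 CPM in mutants, against 132, 160, 93.3 and 115 CPM in controls. Without mutant 2 every mutant lay above every control and Anxa3 was called higher (log2 fold change 0.72, SE 0.17, edgeR adjusted p = 0.00678), while over all 8 libraries it was not (0.50, SE 0.30, edgeR adjusted p = 0.271). Anxa11, which takes part in cytokinesis and in RNA granule transport, was at 59.6, 35.7, 44.7 and 58.9 CPM in mutants, against 35.2, 43.3, 38.9 and 42.7 CPM in controls. It too was called higher without mutant 2 (0.44, SE 0.13, edgeR adjusted p = 0.0214) and not with it (0.31, SE 0.17, edgeR adjusted p = 0.231). Anxa4, an annexin of secretory epithelia, was at 253, 138, 228 and 250 CPM in mutants, against 206, 221, 190 and 203 CPM in controls. It was not called with mutant 2 (0.08, SE 0.19, edgeR adjusted p = 0.786) or without it (0.25, SE 0.11, edgeR adjusted p = 0.0943).

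Anxa6 and Anxa5 went the other way in mutant 2. Anxa6, a long annexin with a duplicated core that is abundant in muscle and connective tissue cells, was at 61.0, 190, 78.5 and 82.3 CPM in mutants, against 105, 91.5, 112 and 85.9 CPM in controls. Mutants 1, 3 and 4 lay below every control, and mutant 2 above every control. The log2 fold change was 0.06 (SE 0.34, edgeR adjusted p = 0.912), and without mutant 2 it turned to -0.42 and was called (SE 0.13, edgeR adjusted p = 0.0343). Anxa5, the phosphatidylserine binder used to stain dying cells, was at 94.2, 160, 99.6 and 118 CPM in mutants, against 136, 116, 143 and 115 CPM in controls. It was not called (-0.11, SE 0.18, edgeR adjusted p = 0.689), nor without mutant 2 (-0.30, SE 0.12, edgeR adjusted p = 0.0841).

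Anxa7, also called synexin and known for fusing secretory granules of the adrenal medulla, was at 218, 138, 179 and 188 CPM in mutants, against 206, 216, 182 and 178 CPM in controls, and was not called (-0.11, SE 0.16, edgeR adjusted p = 0.638). Only mutant 2 lay outside the range of the controls by more than a few CPM. Across the family, mutant 2 was thus the highest mutant for Anxa1, Anxa5 and Anxa6, the lowest for Anxa3, Anxa4, Anxa7, Anxa10 and Anxa11, and between the others for Anxa2 and Anxa8. Without it, 5 members were called higher (Anxa1, Anxa2, Anxa3, Anxa8 and Anxa11) and 1 lower (Anxa6), where 15.2% of 16124 genes tested were called higher and 18.3% lower.

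The scaling of the libraries set the zero of these fold changes. TMM library sizes were 23193267 to 29936067 in mutants and 15179155 to 16713937 in controls. With the column totals in their place, all genes tested had a median of 0.76 on the log2 scale in place of 0.07, 59.3% of all genes were called higher and 4.56% lower, and 8 annexins were called higher and none lower. Relative to that median, Anxa8 (4.71), Anxa1 (2.31), Anxa2 (2.02), Anxa3 (1.17) and Anxa11 (1.01) lay above it, Anxa6 (0.78) and Anxa4 (0.77) close to it, and Anxa5 (0.60), Anxa7 (0.58) and Anxa10 (0.36) below it. Anxa5 and Anxa7 turned from negative to positive under this scaling. By limma-voom with sample weights 5 annexins were called higher (Anxa3 and Anxa11 besides the 3 above) and none lower, where 16.4% of all genes tested were called higher and 19.3% lower. RLE size factors, and TMM factors computed without the 200 most counted genes, kept the calls of the 10 members.

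**Figure D3:**
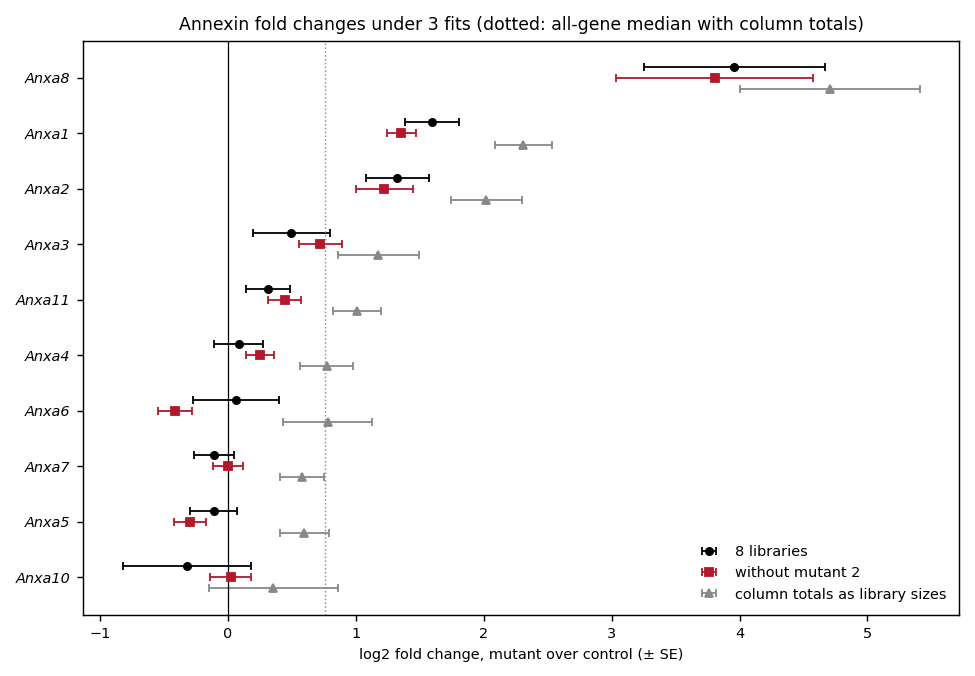
Log2 fold change of each annexin, mutant over control (x axis, ± SE), from edgeR with all 8 libraries (black), without mutant 2 (red) and with column totals as library sizes (grey, whose dotted line marks the median of all genes at 0.76). Anxa8, Anxa1 and Anxa2 stand to the right in all 3, and Anxa6 lies at 0.06 with mutant 2 and at -0.42 without it.

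Ratios within a library do not depend on the scaling. These 2 pairs were chosen after their values were seen. The FPKM of Anxa1 was 0.702, 0.772, 0.748 and 0.625 times that of Anxa5 in mutants 1 to 4, against 0.209, 0.220, 0.227 and 0.221 times in controls 1 to 4. Mutant 2, in which both genes were at their highest, lay close to the other mutants in this ratio. The FPKM of Anxa2 was 2.60, 5.39, 2.24 and 4.00 times that of Anxa7 in mutants, against 1.32, 1.44, 1.09 and 1.15 times in controls. In both ratios every mutant lay above every control.

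The remaining annexin rows of the table were scarce. Anxa13, the annexin of intestinal and kidney epithelium, was at 6.41, 0.491, 4.10 and 2.66 CPM in mutants, against 8.29, 11.4, 6.00 and 8.91 CPM in controls. It was not called (log2 fold change -1.34, SE 0.62, edgeR adjusted p = 0.160), and it was called lower without mutant 2 (-0.97, SE 0.31, edgeR adjusted p = 0.0319). Anxa9 was at 1.57, 1.76, 5.39 and 2.31 CPM in mutants, against 1.19, 1.98, 2.23 and 0.120 CPM in controls, and was not called (1.00, SE 0.73, edgeR adjusted p = 0.356). Anxa9 shares 71 exon bases with Mindy1 on the other strand, which held 1652 to 4033 reads, so the source of its few reads is uncertain. Anxa11os, antisense to Anxa11, held 0 to 6 reads and was not tested.

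The genes whose log2 CPM ran most like those of the called annexins over the 8 libraries were taken by Pearson's r, as a description. For Anxa1 these were Sorcs2, a sorting receptor gene of the VPS10 family (r = 0.992, or 0.971 for deviations from the group means), and C4b, a complement gene (0.991 and 0.916). For Anxa2 they were Isg20l2 (0.989 and 0.951) and Zfp27, a zinc finger gene (0.987 and 0.944). For Anxa8 they were Ccdc134 (0.982 and 0.936) and Cnp, the myelin phosphodiesterase gene (0.981 and 0.905). All 8 points share the difference between groups. These genes had the highest r among the tested protein-coding genes, leaving out annexins, predicted genes (Gm names) and genes with Rik names. Non-coding genes were not compared.

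Partners of annexins were taken from 7 lists with 45 genes in all, including Anxa9 and Anxa13. Of the 35 tested, 7 rose, none fell and 28 were not called, beside 9.39% higher and 10.8% lower over all genes tested. The S100 list had 1 of 3 tested members higher, with a median log2 fold change of 0.77. S100a11, whose protein docks on annexin A1, was at 238, 323, 208 and 295 CPM in mutants, against 122, 119, 80.0 and 94.5 CPM in controls, and rose by 1.35 on the log2 scale (SE 0.20, edgeR adjusted p = 0.00356). S100a10, the partner of annexin A2, was at 35.6, 65.5, 15.2 and 28.9 CPM in mutants, against 18.3, 30.7, 20.4 and 15.5 CPM in controls. Its groups overlapped and it was not called (0.77, SE 0.42, edgeR adjusted p = 0.218). S100a6, a binder of annexin A11, was at 452 ± 124 CPM in mutants and 457 ± 123 CPM in controls (SD, n = 4 each, edgeR adjusted p = 0.972). S100a4 held at most 10 reads in any library and was not tested. It shares 302 exon bases with Gm42674, listed with 0 reads, so its count is uncertain.

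In the list of membrane repair and annexin-binding genes, 1 of 11 tested members rose and none fell (median log2 fold change -0.11). Myof, the gene of myoferlin, a calcium-dependent membrane fusion protein, was at 153, 131, 133 and 157 CPM in mutants, against 43.4, 36.6, 39.1 and 52.8 CPM in controls. This was a log2 fold change of 1.74 (SE 0.14, edgeR adjusted p = 0.000604), with little spread and no library apart. The 10 members not called ranged from -0.98 for Trim72, a repair gene of muscle, to 0.20 for Capn2, a calpain, and included Ahnak, the scaffold that annexin A2 binds (-0.20, SE 0.16), and Pdcd6, the ALG-2 gene (-0.17, SE 0.11).

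Among the formyl peptide receptors, which annexin A1 acts on, 1 of the 2 tested genes was called. Fpr2 held 38, 464, 11 and 50 reads in mutants, against 1, 0, 4 and 3 reads in controls, and was called higher (edgeR adjusted p = 0.0313). Leaving out any 1 of the controls ended it (edgeR adjusted p between 0.0739 and 0.0952), as did leaving out control 3 and mutant 3 (edgeR adjusted p = 0.0545). Fpr1 held 20, 300, 12 and 29 reads in mutants, against 6, 0, 4 and 0 reads in controls, and was not called (edgeR adjusted p = 0.0602). Without mutant 2 Fpr1 was called (edgeR adjusted p = 0.0483), as it was without mutant 3 (edgeR adjusted p = 0.0465). Fpr3, Fpr-rs3, Fpr-rs4, Fpr-rs6 and Fpr-rs7 had 0 reads in all 8 libraries, which allows up to 0.198 CPM in the library with the highest limit (3 counts, counting error only). This limit may not hold for Fpr3. Its span (chromosome 17, 17887852 to 17971677) overlaps that of Fpr2 (17887824 to 17893952) on the same strand. Their shared exon bases were not computed, so the counts of both are uncertain.

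In the plasminogen list, 2 of 6 tested members rose and none fell (median log2 fold change 1.63). Plaur, the urokinase receptor gene, was at 46.2, 63.6, 20.5 and 60.1 CPM in mutants, against 11.5, 16.0, 14.2 and 10.2 CPM in controls (1.87, SE 0.34, edgeR adjusted p = 0.0090). Plat, the gene of tissue plasminogen activator, was at 41.0, 59.7, 12.8 and 42.9 CPM in mutants, against 9.48, 9.75, 13.0 and 10.4 CPM in controls. Mutant 3 was the lowest mutant for both, and for Plat it lay below the highest control. Plat was called higher (1.87, SE 0.41, edgeR adjusted p = 0.0166), though not without control 1 (edgeR adjusted p = 0.0584) or control 2 (edgeR adjusted p = 0.0540). Plgrkt, a plasminogen receptor gene, lay below every control in 4 of 4 mutants but was not called (-0.63, SE 0.21, edgeR adjusted p = 0.0686), and it was called lower without mutant 2 (-0.47, SE 0.14, edgeR adjusted p = 0.0273). Plg itself was too scarce to test.

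Annexin A1 is among the annexins that were described early as inhibitors of phospholipase A2. Of the cytosolic phospholipase A2 list 1 of 4 tested members rose and none fell (median log2 fold change 0.31). Pla2g4a, which frees arachidonic acid from membranes, was at 77.6, 52.7, 68.0 and 88.4 CPM in mutants, against 35.9, 45.5, 41.5 and 47.7 CPM in controls (0.75, SE 0.17, edgeR adjusted p = 0.0187). Its call was lost without control 1 (edgeR adjusted p = 0.0549), without control 3 (edgeR adjusted p = 0.0539) or without control 3 and mutant 3 (edgeR adjusted p = 0.0902). Pla2g4c was not called (0.65, SE 0.54, edgeR adjusted p = 0.423) and was called higher without mutant 2 (1.00, SE 0.13, edgeR adjusted p = 0.000257). Pla2g4f was not called either (-1.57, SE 1.14, edgeR adjusted p = 0.350) and was called lower without mutant 3 (-4.50, SE 0.55, edgeR adjusted p = 0.00362).

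Annexins bind phosphatidylserine, which scramblases expose and flippases return to the inner leaflet. Of 7 tested genes of that kind 1 rose and none fell (median log2 fold change 0.56). Plscr1, a scramblase family gene that interferon induces, was at 116, 119, 63.4 and 125 CPM in mutants, against 29.5, 35.8, 22.1 and 28.6 CPM in controls (1.87, SE 0.24, edgeR adjusted p = 0.00236). Atp11a, a flippase gene, was above every control in 4 of 4 mutants without being called (0.85, SE 0.29, edgeR adjusted p = 0.0695), and it was called without mutant 2 (0.50, SE 0.15, edgeR adjusted p = 0.0274).

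**Figure D4:**
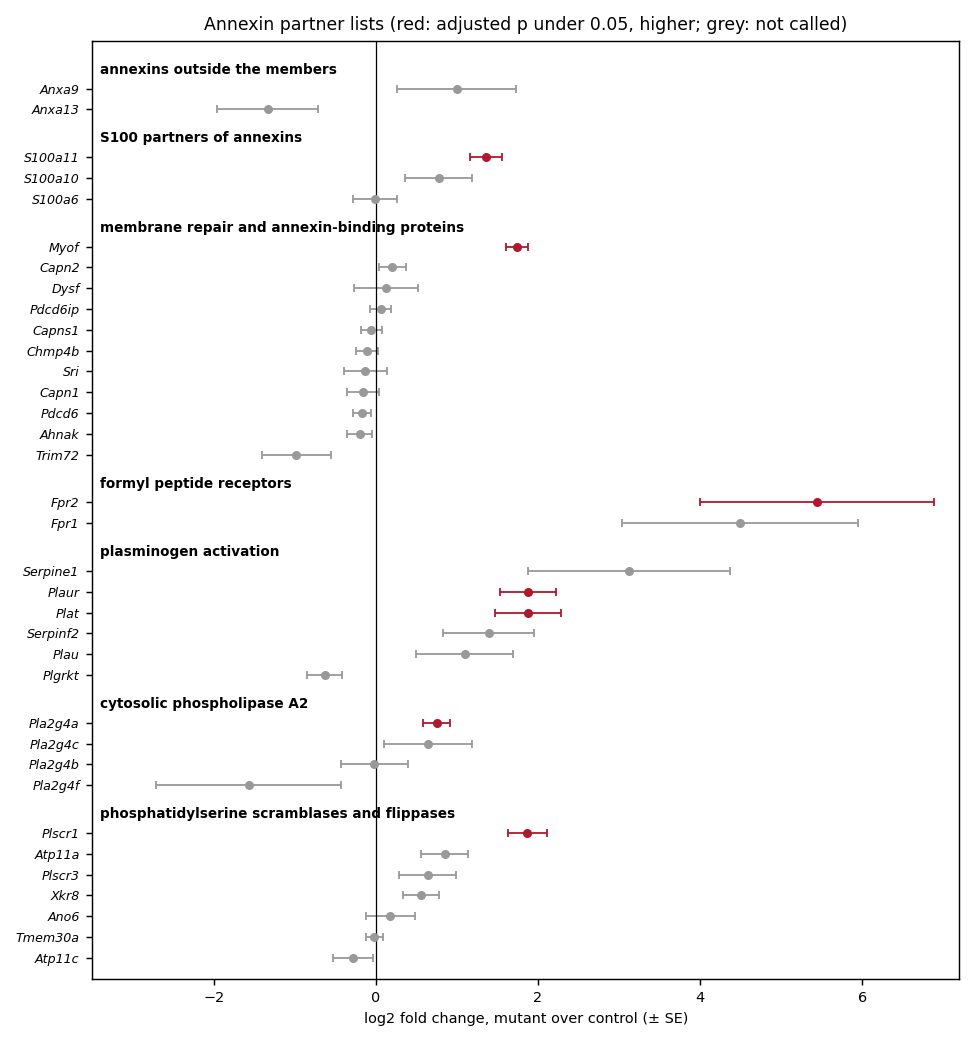
Log2 fold change, mutant over control (x axis, ± SE, edgeR), of the 35 tested genes in 7 lists of annexin partners, grouped by list. The 7 called genes (red) are S100a11, Myof, Fpr2, Plaur, Plat, Pla2g4a and Plscr1, and none is called lower.

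Markers of other cell types were summed in each library, as a description beside these values. Their calls stand beside 9.39% higher and 10.8% lower over all genes tested. Of 7 neutrophil markers, 5 were tested and 4 rose (S100a8, S100a9, Csf3r and Cxcr2). The list summed to 40.9, 982, 23.0 and 63.8 CPM in mutants 1 to 4, against 3.64, 11.3, 3.00 and 2.03 CPM in controls 1 to 4. The scarcest of its genes, Ly6g and Mpo, were not tested. Ly6g held 7, 95, 0 and 6 reads in mutants 1 to 4, against 0 reads in every control. Mpo held 2, 230, 0 and 1 reads in mutants 1 to 4, against 0 to 2 reads in controls, so only mutant 2 stood apart. The macrophage list had 0 of 6 tested members called and summed to 187, 788, 119 and 219 CPM in mutants, against 132, 148, 122 and 118 CPM in controls. The fibroblast list had 1 of 6 higher (Pdgfra) and summed to 1473, 36032, 1388 and 2170 CPM in mutants, against 1285, 1328, 1493 and 1449 CPM in controls. Mutant 2 was thus the highest library for each of these lists, and also for the endothelial and mesothelial lists below. It was the highest library for Anxa1, Anxa5 and Anxa6 as well.

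The smooth muscle list fell in 8 of 8 tested members, beside 10.8% of all genes tested called lower and 9.39% higher. Its sums were 299 to 874 CPM in mutants, against 2968 to 3967 CPM in controls. The endothelial list had 0 of 6 members called and summed to 129 to 913 CPM in mutants, against 176 to 219 CPM in controls. The mesothelial list had 1 of 4 tested members higher and 1 lower, with sums of 23.9 to 75.4 CPM in mutants, against 47.8 to 59.3 CPM in controls. The list named pan-epithelial (Epcam, Cdh1, Krt8, Krt18, Krt19 and Krt7) holds none of the keratins of the squamous list. It had 2 of 6 higher (Epcam and Krt7) and summed to 7380, 1896, 5978 and 6551 CPM in mutants 1 to 4, against 7158, 8164, 4704 and 5421 CPM in controls 1 to 4. Mutant 2 was lowest in this sum, as it was for Anxa3, Anxa4, Anxa7 and Anxa10. Cdh1, Krt8, Krt18 and Krt19 were lowest in mutant 2 too, but the list was not uniform. Epcam was highest in mutant 2, at 478 CPM, against 337 to 402 CPM in the other mutants and 163 to 177 CPM in controls. Krt7, at 65.6 CPM in mutant 2, lay within the range of the other mutants. The mucous neck cell list rose in 4 of 4 members, with sums of 7545 to 25315 CPM in mutants, against 2321 to 5869 CPM in controls. None of the 3 tested squamous markers was called, and 4 of 7 parietal and 2 of 5 chief cell markers fell. Gif, not called, is in both of the last lists. The part of any of these cell types in the annexin values was not tested. In mutants 1, 3 and 4 the neutrophil sum, 23.0 to 63.8 CPM, was also above the 2.03 to 11.3 CPM of the controls, so that leaving out mutant 2 does not remove that difference.

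**Figure D5:**
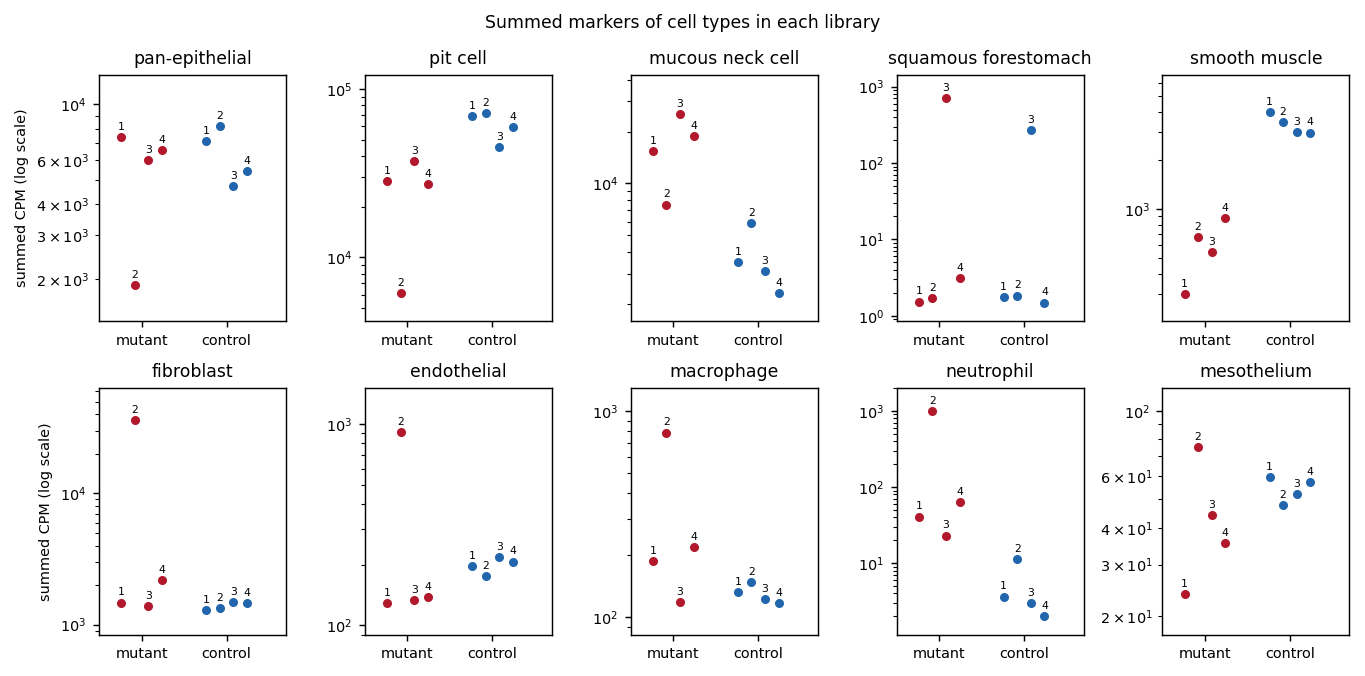
Summed CPM of the markers of 10 cell types (y axes, log scale) in each mutant (red, left) and control (blue, right) library, numbered by replicate. Mutant 2 is highest in the fibroblast, endothelial, macrophage, neutrophil and mesothelium panels and lowest in the pan-epithelial and pit cell panels, and control 3 and mutant 3 stand apart in the squamous panel.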

How the data were processed

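Per the labels' protocols, corpus tissue went into RNAlater, Trizol was used to extract RNA, and a NEBNext Ultra kit to prepare the libraries. The authors deposited raw counts of reads by Ensembl gene, and FPKM on the same gene rows. The submitters' processing notes name CASAVA, fastp, STAR 2.5 and featureCounts, without roles. Neither build nor strand setting is given in the sources used here. Genes overlapping on the other strand are therefore uncertain. All 10 members have the start and end of GENCODE M21 (GRCm38), as have 53462 of 54409 genes shared with it. The column headed SCI was read as SC1, and all others carry a sample's name.

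After filterByExpr and TMM scaling, the whole table was tested, mutant over control, by the robust quasi-likelihood method of edgeR 4.0.16 (R 4.3.3), with Benjamini-Hochberg adjustment. The SE is the fitted coefficient without prior count divided by the square root of F. CPM are counts over TMM library sizes. The library sizes implied by the deposited FPKM were 1.004 to 1.013 times these, so FPKM carry the same scaling. The series' design text calls the 4 libraries of a group biological replicates. Within groups, every pair differed beyond counting noise (chi-square over degrees of freedom at least 15.0). Promoters are from RefSeq (GRCm38.p6), matched by symbol for 8 of 10 members. The tests were checked on simulated counts.

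The members and lists were chosen with earlier results of these data known. The text names all members and other annexin rows, and each partner list's called genes and otherwise its smallest p. For each called member it names the 2 tested protein-coding genes with the highest r, leaving out annexins and genes with Gm or Rik names. Partner genes named beyond these were chosen after their values were seen. The alternatives were DESeq2 1.42.0, limma-voom (limma 3.58.1) with sample weights, other scalings and filters, limma-trend on log2(FPKM + a pseudocount of 1 or of 0.1), the replicate number as a block, a threshold of 0.01, and libraries left out.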

Additional observations from a re-analysis of the deposited data

Results flagged for a closer look

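Single libraries lay far from the others of their group by Dixon's criterion in 5 of 38 groups of 4 examined (the annexins and the called partner genes, in CPM), where chance gives about 1 in 20. In 4 of the 5 the library was mutant 2. Mutant 2 was highest for Anxa1 at 181 CPM, against 97.1 to 109 CPM in the other mutants. It was also highest for Anxa6 at 190 CPM, against 61.0 to 82.3 CPM. It was lowest for Anxa10 at 158 CPM, against 956 to 1024 CPM, and highest for Fpr2 at 19.0 CPM, against 0.474 to 2.14 CPM. Mutant 3 was lowest for Plscr1 at 63.4 CPM, against 116 to 125 CPM in the other mutants. The cause was not tested for any of these.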

How the results depend on the processing

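Anxa1 and Anxa2 stayed called higher under all 22 alternatives, with log2 fold changes between 1.35 and 2.31 for Anxa1 and between 1.22 and 2.02 for Anxa2. Anxa8 stayed called under all but that without control 3, mutant 3 and mutant 2 (4.25, edgeR adjusted p = 0.0635, with 2 mutants left), and lay between 2.499, on log2(FPKM + 1), and 4.71. Of 220 annexin values under alternatives, 9 gained a call, 1 lost it and 3 turned sign with a call. Those 3 were Anxa5 (0.60) and Anxa7 (0.58) with column totals and Anxa6 (-0.42) without mutant 2, whose range was -0.42 to 0.25 with 1 library left out. Annexins called higher were 3 (9.39% of all genes), against 5 by limma-voom (16.4% of all genes) and 8 with column totals (59.3%). They were 3 to 5 with 1 library left out (5 without mutant 2, where 15.2% of all genes were called higher). Annexins called lower were 0 (10.8% of all genes), and 0 to 1 with 1 library left out (1 without mutant 2, where 18.3% of all genes were called lower).

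Partner genes called higher were 7 (9.39% of all genes), against 23 with column totals (59.3% of all genes). They were 4 with the replicate block (the replicate number as a factor) and 4 at a threshold of 0.01. With 1 library left out they were 4 to 11 (4 without control 1, 11 without mutant 2, where 15.2% of all genes were called higher). Over the tested genes, same-numbered libraries did not deviate together (correlations of deviations between -0.091 and 0.062). Control 3 and mutant 3 nevertheless both held squamous transcripts. A correlation over all genes cannot show whether same-numbered libraries were handled together. The replicate block kept the 3 annexin calls (edgeR adjusted p = 0.0193, 0.0221 and 0.0429 for Anxa1, Anxa2 and Anxa8) and lost those of Fpr2, Plat and Pla2g4a. Partner genes called lower were 0 (10.8% of all genes), against 1 by DESeq2 and 3 by limma-voom (19.3%). They were 1 without both squamous libraries (5.14%), 2 without mutant 2 as well (14.1%) and 0 to 2 with 1 library left out. With column totals Ahnak (0.48), Capns1 (0.64), Pdcd6 (0.52), Chmp4b (0.58) and Tmem30a (0.68) turned positive. Marker genes called higher were 13 (9.39% of all genes), against 26 with column totals (59.3%). They were 8 with log2(FPKM + 1) without a filter, 6 at 0.01, and 8 to 14 with 1 library left out. Marker genes called lower were 15 (10.8% of all genes), against 29 by limma-voom (19.3%) and 7 at 0.01. They were 8 without both squamous libraries (5.14%) and 26 without mutant 2 as well (14.1%). With 1 library left out they were 10 to 30 (30 without mutant 2, where 18.3% of all genes were called lower). The causes were not tested. Over all genes, leaving out 1 library gave 665 to 2447 called higher and 1018 to 2953 lower, against 1489 and 1719. Under all 22 alternatives, 380 to 9412 of all genes were called higher and 667 to 3066 lower. A count given above without a share may therefore only follow the number of all genes called in that setting. Anxa8 in controls (6 to 32 reads) and Fpr2 (0 to 4 reads) were limited by depth.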

Other observations

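Among the 4 controls, control 3 was the highest for Anxa1, Anxa5, Anxa6 and Anxa8 and the lowest for Anxa2, Anxa3, Anxa4 and Anxa10. Its Anxa10 was 757 CPM, against 928 to 1175 CPM in the other controls, and its summed pan-epithelial markers were 4704 CPM, against 5421 to 8164 CPM. Mutant 2 lay the same way relative to the other mutants for Anxa1, Anxa5, Anxa6, Anxa3, Anxa4 and Anxa10. Control 3 was also the control with squamous transcripts, of which mutant 2 held few (1.72 summed CPM).

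The FPKM of Anxa2 was 3.22, 2.30, 5.37 and 5.26 times that of S100a10 in mutants 1 to 4, against 3.00, 2.04, 1.96 and 2.68 times in controls 1 to 4, and the groups overlapped through mutant 2. The FPKM of Anxa1 was 0.0801, 0.110, 0.103 and 0.0717 times that of S100a11 in mutants, against 0.0668, 0.0617, 0.117 and 0.0771 times in controls, which overlapped, although both genes were called higher.

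The coefficient of variation over the 4 controls was 6.29% for Anxa4, 9.39% for Anxa7, 9.44% for Anxa11, 11.2% for Anxa5, 12.0% for Anxa1, 12.2% for Anxa6, 18.0% for Anxa10, 21.9% for Anxa2, 22.6% for Anxa3 and 59.2% for Anxa8. Over the 4 mutants it was 53.3% for Anxa10, and over mutants 1, 3 and 4 it was 3.54%.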
